A study of Homo sapiens with 12 samples.

Results

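RAB proteins are small GTPases that mark the membranes of secretory and endocytic organelles. They were represented by 63 of the 28278 gene symbols in the count table, each a RAB symbol with a number and at most a paralog suffix. Effectors, interactors, antisense transcripts and pseudogenes were left out, among them RAB40AL, RAB3IP and RAB5IF. All 63 were annotated as protein-coding genes in GENCODE 44 on hg38.

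A RAB protein is loaded with GTP by a guanine nucleotide exchange factor, recruits effectors such as tethers and motors while in that state, and is switched off by a GTPase-activating protein. Prenyl groups added by an escort-dependent transferase anchor it to membrane. Hydroxychloroquine (HCQ) is a weak base that accumulates in acidic endosomes and lysosomes and blocks late steps of autophagy, so the proteins that direct traffic to and from these organelles are of interest in cells adapted to it.

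The transcriptomes were labelled OVCAR3, an established ovarian cancer line, and CCL218, an established colorectal cancer line. HCQ-evolved cells (passage 15) had gone through 15 pulses of HCQ of 48 h each, followed by 7 days of growth without the drug, and control cells (passage 19) were passaged in its absence. Wells of one plate per group were pooled according to where they stood on the plate, as left (L), middle (M) or right (R), which gave 4 groups of 3 pools and 12 libraries of polyA RNA. The pools of a group therefore shared a plate and a history, the passage number differed between the groups, and p-values measure only the spread between pools.

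The libraries held 31147822 to 59965861 counts. Of 12324 genes tested, 117 were higher and 136 lower in control CCL218 than in control OVCAR3 at an adjusted p under 0.05 (edgeR). With plate position as a term in the fit (a block), 2230 were higher and 2212 lower. Of 10 ovarian (Mullerian) markers, 5 or 6 averaged at least 1 CPM (counts scaled by library size with TMM) in each group, and their sum was 66.9 to 106.6 CPM in OVCAR3 pools and 130.9 to 188.8 CPM in CCL218 pools. MUC16 was higher under OVCAR3 (22.4 CPM in control and 30.9 CPM in HCQ-evolved pools against 8.65 and 4.77 CPM), while MSLN was higher under CCL218 (63.6 against 14.2 CPM in controls). SOX17, EMX2 and ESR1 were at or near 0 in every group. Of 12 intestinal markers, 8 to 10 averaged at least 1 CPM, led by LGALS4 and VIL1, and KRT20 was at or near 0. Their sum was 983 to 1204 CPM in control and 247 to 706 CPM in HCQ-evolved OVCAR3, and 1261 to 1766 against 1324 to 1378 CPM under CCL218, where CDX2 averaged 23.2 and 67.8 CPM and CDH17 3.84 and 52.5 CPM. The part of these shifts in the results below was not tested, and whether the labels stand for distinct lines cannot be told from these values. Epithelial markers were high in every group, and fibroblast and endothelial sums were at most 3.34 and 3.21 CPM. The leukocyte sum of 1321 to 2776 CPM came from LYZ and CD68, with PTPRC and CD3E near 0. CD68 averaged 15.0 and 35.7 CPM in control and HCQ-evolved OVCAR3 and 12.7 and 50 CPM under CCL218. Pools also differed along transcript length, with a Spearman's rho across genes of -0.513 to 0.579 between length and a pool's deviation, and both signs occurred within every group. Control L of CCL218 (-0.513) and HCQ-evolved R of OVCAR3 (0.579) lay at the ends.

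RNA of 50 RAB genes was above 3 counts, the floor of detection used here, in every pool. Another 8 were above it in some pools (RAB3B, RAB3C, RAB6B, RAB9B, RAB33A, RAB34, RAB40A and RAB42). RAB38, RAB39B and RAB44 stayed at 2 counts or fewer throughout, and RAB4B and RAB39A had 0 counts in all 12 pools. RAB4B shares exons with the read-through genes MIA-RAB4B and RAB4B-EGLN2, and how such reads were assigned is not given in the sources used here. Of all table entries of 1 to 4 counts, 78.9% were even, so low counts do not stand for that many independent fragments. With a filter of at least 1 CPM in at least 3 libraries, 46 RAB genes were tested under both labels and RAB3B, RAB6C and RAB32 under CCL218 alone. The other 14 were not tested in either.

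The promoters of RAB3B and RAB6A are shown because these genes had the largest fall and the single rise described below under the CCL218 label. The sequences are the 250 bases before the RefSeq start on GRCh38.p14, 5′ to 3′ on the gene's strand. Capitals mark GGGCGG (the Sp1-type GC box) and TGANTCA (the AP-1 type site) on either strand. The RAB3B window lies at chr1:51990701-51990950 and the RAB6A window at chr11:73761075-73761324, both on the minus strand.
RAB3B: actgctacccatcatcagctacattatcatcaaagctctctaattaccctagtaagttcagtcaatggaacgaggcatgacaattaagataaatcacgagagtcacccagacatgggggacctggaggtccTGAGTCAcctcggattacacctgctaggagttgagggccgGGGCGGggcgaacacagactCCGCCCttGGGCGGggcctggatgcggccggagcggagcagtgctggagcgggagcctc
RAB6A: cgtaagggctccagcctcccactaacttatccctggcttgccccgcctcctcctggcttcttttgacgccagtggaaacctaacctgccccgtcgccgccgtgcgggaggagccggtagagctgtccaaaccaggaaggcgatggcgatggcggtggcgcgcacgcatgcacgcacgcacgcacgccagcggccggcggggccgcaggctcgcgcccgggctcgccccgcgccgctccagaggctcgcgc
The RAB3B window held 1 TGANTCA match and 3 GGGCGG matches, and its GC content was 56.8%. The RAB6A window held no match to either motif and had a GC content of 71.6%. A second RefSeq start of RAB6A, with its window at chr11:73760096-73760345, held 1 GGGCGG match at 64.4% GC. RefSeq promoters, of the 250 bases before and 50 bases after the start, were found for 50 of the 63 RAB genes (71 promoters). GGGCGG was present in 73.2% of these 71 and in 45.0% of all 35116 promoters of that length, and the median GC content was 64.0% and 58.7%. TGANTCA was present in 11.3% against 7.71%, including those of RAB3B, RAB27A and RAB27B. CACGTG, the E-box core of the site bound by the lysosomal regulator TFEB, was present in 8.45% against 7.26%, including those of RAB5A and RAB4A. TGACGTCA, the cAMP response element, was present in 1.41% against 1.85%. Motifs do not overlap in the printed windows, and a match is a description of letters only.

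Levels between genes are given in TPM, counts divided by transcript length and scaled to the same sum in each library. RAB genes together took between 2863 TPM in control L and 3975 TPM in HCQ-evolved R of OVCAR3. RAB1B, which acts from the endoplasmic reticulum to the Golgi, was highest in 3 of the 4 groups, with 469 ± 61.2 TPM in control OVCAR3 and 472 ± 43.5 TPM in control CCL218 (mean ± SD, n = 3). RAB7A, which directs late endosomes and autophagosomes to lysosomes, was at rank 2 there and highest in HCQ-evolved CCL218, at 426 ± 39.4 against 407 ± 16.6 TPM for RAB1B. RAB25, an epithelial relative of RAB11A, was at 302 ± 18.4 TPM in control OVCAR3 and 242 ± 23.7 TPM in control CCL218.

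Of the regulated secretion RABs, RAB3D led at 39.1 ± 9.70 TPM in control OVCAR3, and RAB26 led in control CCL218 at 37.9 ± 11.2 TPM. RAB5C led the early endosome group at 149 ± 45.7 and 197 ± 51 TPM, and RAB40C, which recruits a ubiquitin ligase, led the ciliary and less studied group at 43.2 ± 5.15 and 48.8 ± 0.747 TPM. RAB6A, which carries Golgi vesicles, was at rank 10 of the RAB genes in control OVCAR3 and at rank 3 in HCQ-evolved CCL218, at 405 ± 41.2 TPM. Neighbours at the top did not differ beyond their SDs in HCQ-evolved CCL218, where RAB7A, RAB1B and RAB6A overlapped.

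**Figure D1:**
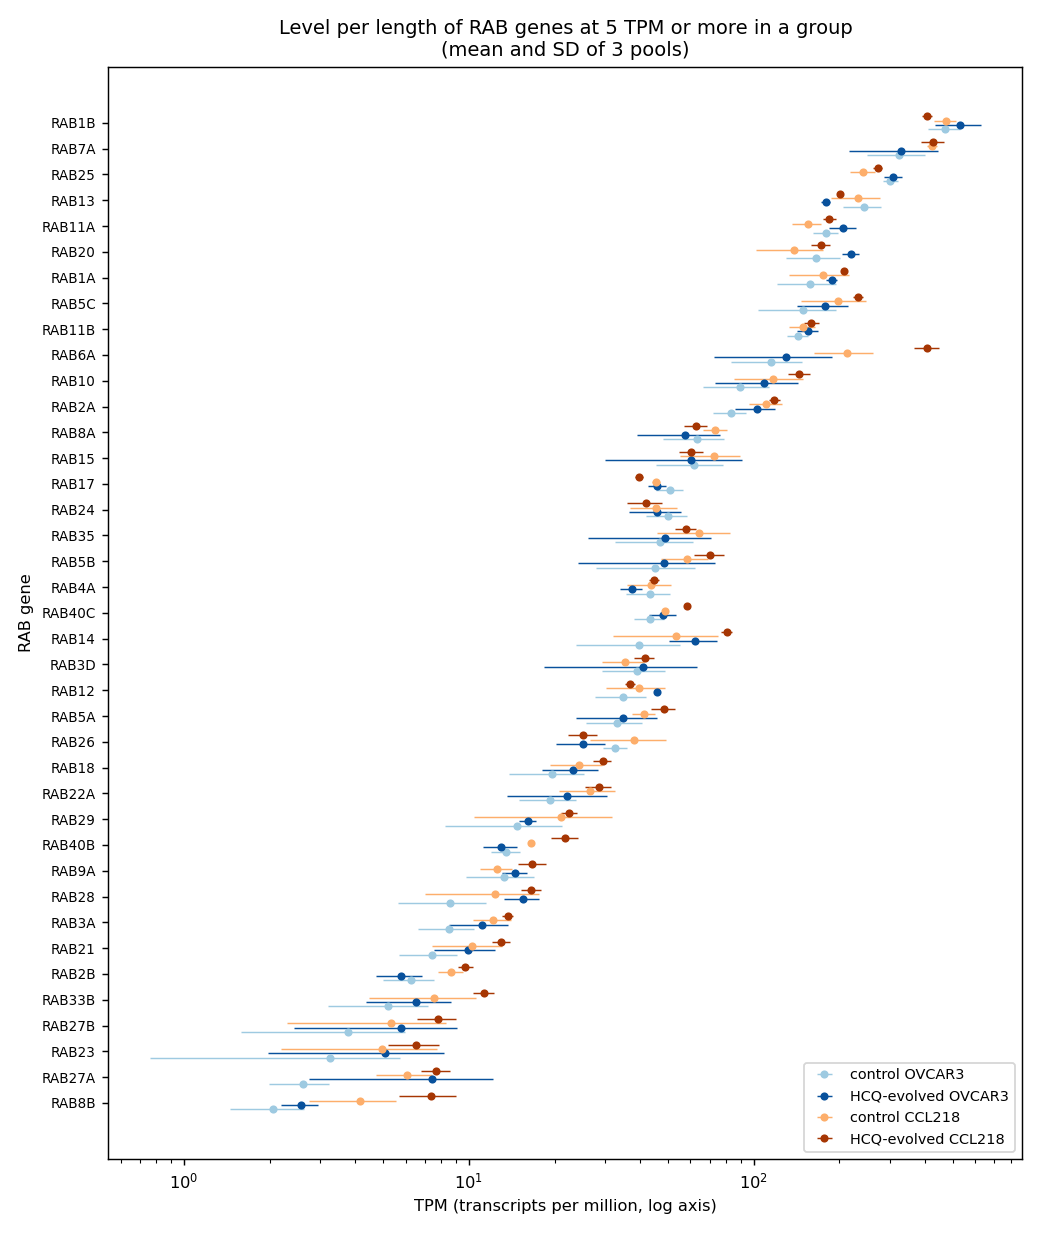
Mean level in TPM (log axis) with the SD of 3 pools as bars, for RAB genes at 5 TPM or more in at least 1 of the 4 groups, ordered by control OVCAR3. RAB1B and RAB7A hold the top 2 ranks in every group, and RAB6A in HCQ-evolved CCL218 (405 ± 41.2 TPM) stands clear of its other groups.

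HCQ-evolved pools labelled OVCAR3 were compared with their control pools to ask which RAB transcripts differed after adaptation to the drug. Intestinal markers moved unevenly with this comparison. VIL1 was at 241 and 110.0 CPM and LGALS4 at 729.7 and 360.0 CPM in control and HCQ-evolved pools. GPA33 rose from 3.095 to 5.22 CPM, while CDH17 (3.34 and 3.495 CPM) and CEACAM5 (5.08 and 5.18 CPM) hardly moved. The part of these markers in the comparison was not tested. At an adjusted p under 0.05 by edgeR's quasi-likelihood test, 0 of 46 RAB genes were higher and 0 were lower, where 0.647% of all 12204 genes tested were higher and 1.21% lower. At an unadjusted p under 0.05 there were 7 of 46 (15.2%), against 16.2% of all genes. DESeq2's Wald test called 4 RAB genes (RAB27A higher, RAB6D, RAB36 and RAB37 lower) and 9.06% of all genes, and limma voom called 0 and 2.12%. The pools of the 2 groups did not overlap for 12 RAB genes, with HCQ-evolved pools above for 5 and below for 7 (10.9 and 15.2%), against 13.0 and 12.7% of all genes. The median log2 fold change of the RAB genes was 0.049, and that of all genes 0.016. Without HCQ-evolved R, 1 RAB gene was higher (RAB27A) and 3 lower (RAB6D, RAB36 and RAB37), where 1.92 and 2.67% of all genes were. Without any other pool 0 passed, where 0.0250 to 0.404% of all genes did.

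Under the CCL218 label, 1 of 49 RAB genes rose and 2 fell at an adjusted p under 0.05 (edgeR), where 3.82% of all 12241 genes were higher and 2.64% lower. The 3 were RAB6A, which rose, and RAB36 and RAB3B, which fell. RAB3B passed the filter only through its control pools and so could be called lower but not higher. RAB6C passed it only through its HCQ-evolved pools and so could be called higher but not lower. Both count among the genes given next at an unadjusted p under 0.05 and among those whose pools did not overlap. At an unadjusted p under 0.05 there were 12 of 49 (24.5%), against 25.2% of all genes, so the share of RAB genes was near the background. DESeq2's Wald test called 8 (adding RAB8B higher and RAB7B, RAB15, RAB19 and RAB37 lower) and 17.7% of all genes. Limma voom called 4 (adding RAB37) and 6.85%. HCQ-evolved pools were above controls without overlap for 11 RAB genes and below for 9 (22.4 and 18.4%), against 18.6 and 17.3% of all genes. The median log2 fold change was 0.059, against -0.017 for all genes. Leaving out control L raised the count to 4 higher (RAB6A, RAB8B, RAB14 and RAB40B) and 6 lower (RAB7B, RAB15, RAB19, RAB35, RAB36 and RAB37), where 13.6 and 11.6% of all genes were higher and lower. Leaving out control R, HCQ-evolved M or HCQ-evolved R left 0, where 1.20, 0.841 and 1.18% of all genes passed. Plate positions paired the CCL218 pools, and with a block for position 2 RAB genes rose (RAB6A and RAB8B) and 3 fell (RAB3B, RAB36 and RAB37), where 7.82 and 6.43% of all genes did. RAB6D, RAB7B, RAB8B, RAB14, RAB19, RAB21, RAB28, RAB32, RAB37 and RAB42 are named below after their values were seen.

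**Figure D2:**
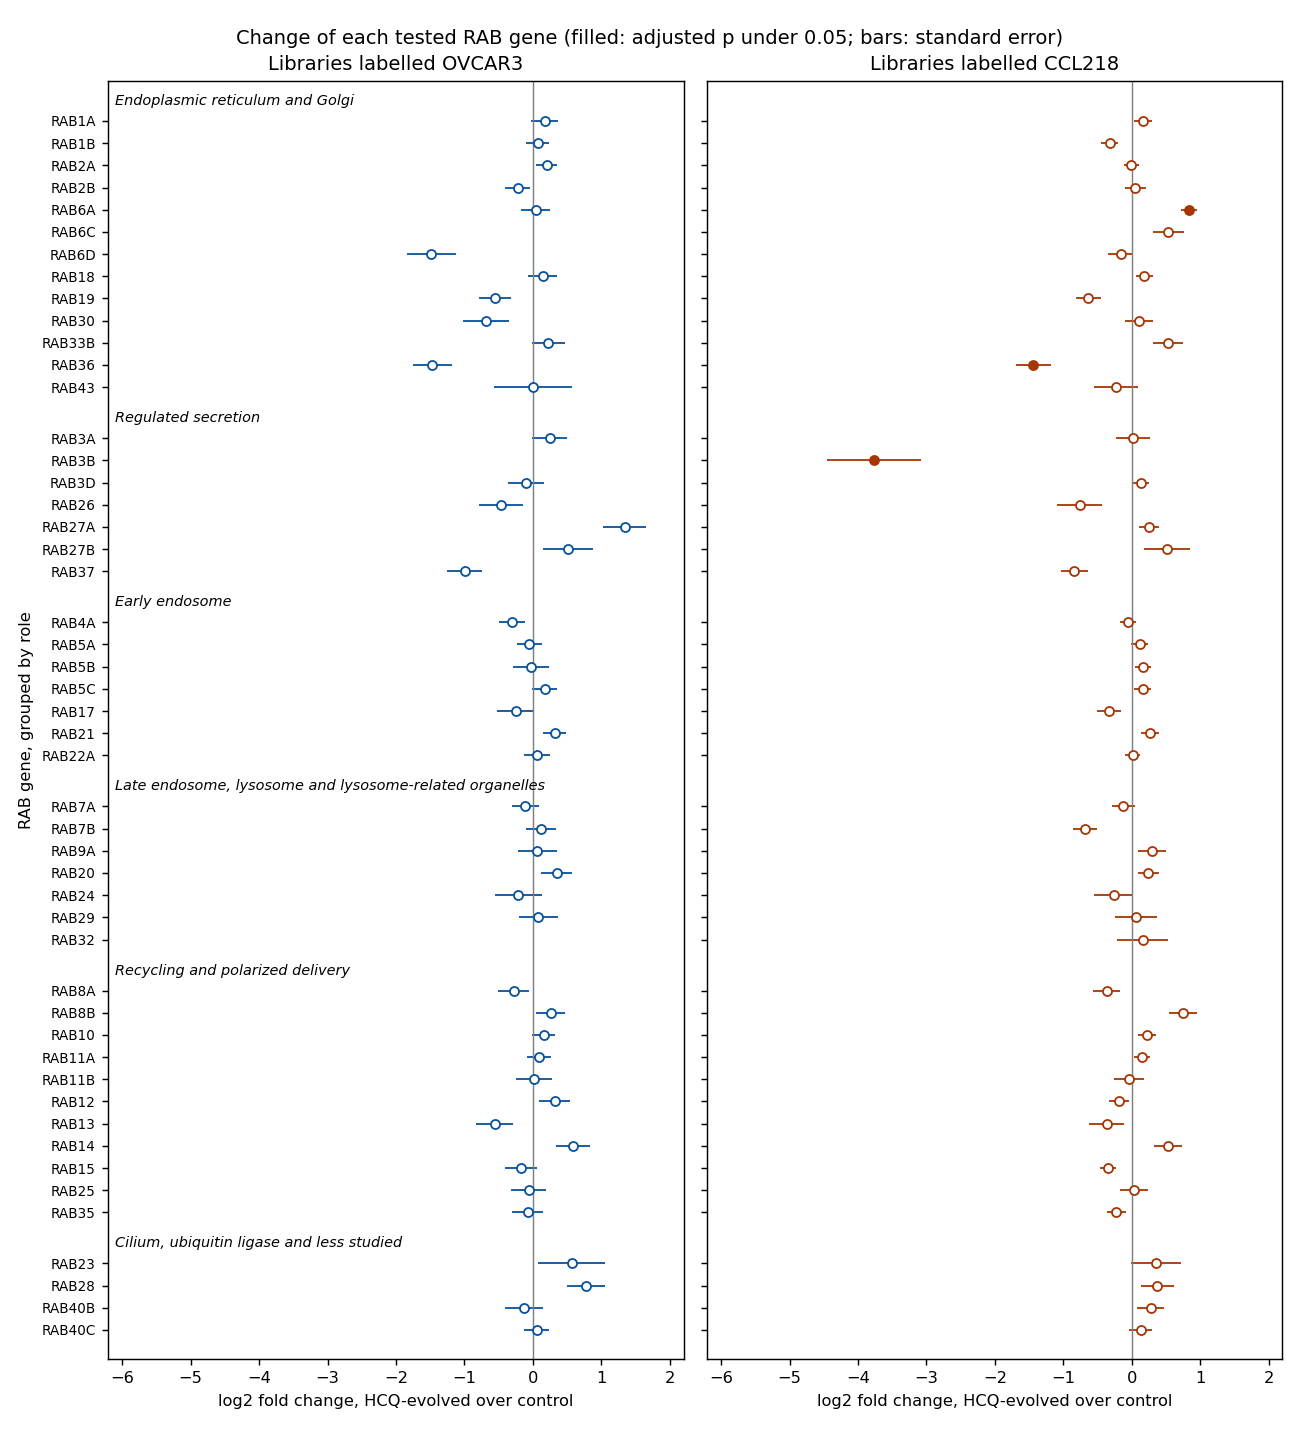
log2 fold change (HCQ-evolved over control) with its standard error for each RAB gene tested, grouped by role, under the OVCAR3 label (left) and the CCL218 label (right). Filled points have an adjusted p under 0.05 and are RAB6A, RAB36 and RAB3B under CCL218, and 35 of 46 genes (left) and 37 of 49 (right) lie within 0.5 of 0.

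RAB3B, a RAB of synaptic and secretory vesicles that acts in regulated exocytosis (chromosome 1, 51907956 to 51990700, on the minus strand), fell to few counts in HCQ-evolved CCL218. Control pools L, M and R held 62, 102 and 84 counts (1.52, 2.22 and 1.79 CPM after TMM normalization) and HCQ-evolved pools 0, 16 and 6 counts (0, 0.291 and 0.1003 CPM). The groups did not overlap, and the HCQ-evolved L pool had no count. The mean fell from 1.84 ± 0.351 to 0.131 ± 0.148 CPM, 14.1 times lower. The log2 fold change (HCQ-evolved over control) was -3.77 (SE 0.69, adjusted p = 0.0246), where SE is its standard error and p is from edgeR's quasi-likelihood test, adjusted over all genes. It could be tested in 3 of the 6 fits with a pool left out, with log2 fold changes of -5.01 to -3.24 and adjusted p of 0.0498 to 0.136, and it passed in the fit without HCQ-evolved L. The other settings gave adjusted p of 3.38e-06 to 0.0327. In all of them but the one with no filter, RAB3B entered only through its control pools.

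Under the OVCAR3 label RAB3B was below the filter. Control pools held 10, 16 and 18 counts (0.258, 0.502 and 0.333 CPM) and HCQ-evolved pools 4, 4 and 6 counts (0.0699, 0.0772 and 0.1004 CPM), again without overlap. In a fit without the filter its log2 fold change was -2.05 (SE 0.71, adjusted p = 0.18). The difference in change between the labels was -1.69 (SE 1.02, adjusted p = 0.78) for CCL218 minus OVCAR3, so a difference was not shown. Between the control groups RAB3B was higher under CCL218 by 2.36 (SE 0.35, adjusted p = 0.0196), in the fit without a block, where no other RAB gene of 47 passed. It entered that fit only through the CCL218 pools, so it could be called higher but not lower. With the block for plate position, which paired the control groups, 5 RAB genes were higher and 10 lower (18.1 and 17.9% of all genes). In the fit without it, of all 12324 genes, 0.949% were higher and 1.10% lower. It was below the filter without any one CCL218 pool, and it no longer passed without control OVCAR3 L or R (adjusted p up to 0.169), nor in one fit of all 12 libraries (0.0583).

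The genes whose level followed RAB3B most closely over the 12 pools were SLCO5A1 (Pearson's r of log2 CPM 0.951), ZNF3 (0.935), MTURN (0.923), SYNE1 (0.905) and BAZ1A (0.903), of 11944 genes tested under both labels. Each r is a description over 12 pools that share plates and depth. Outside control CCL218, RAB3B held at most 18 counts in a pool, and 0.5 CPM was added before the log2. The r therefore leans on the control CCL218 pools. Because r chose these genes, their own levels are no separate result. SYNE1, which encodes the nuclear envelope protein nesprin-1, averaged 3.95 CPM in control and 1.26 CPM in HCQ-evolved OVCAR3, and 7.28 against 1.97 CPM under CCL218.

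**Figure D3:**
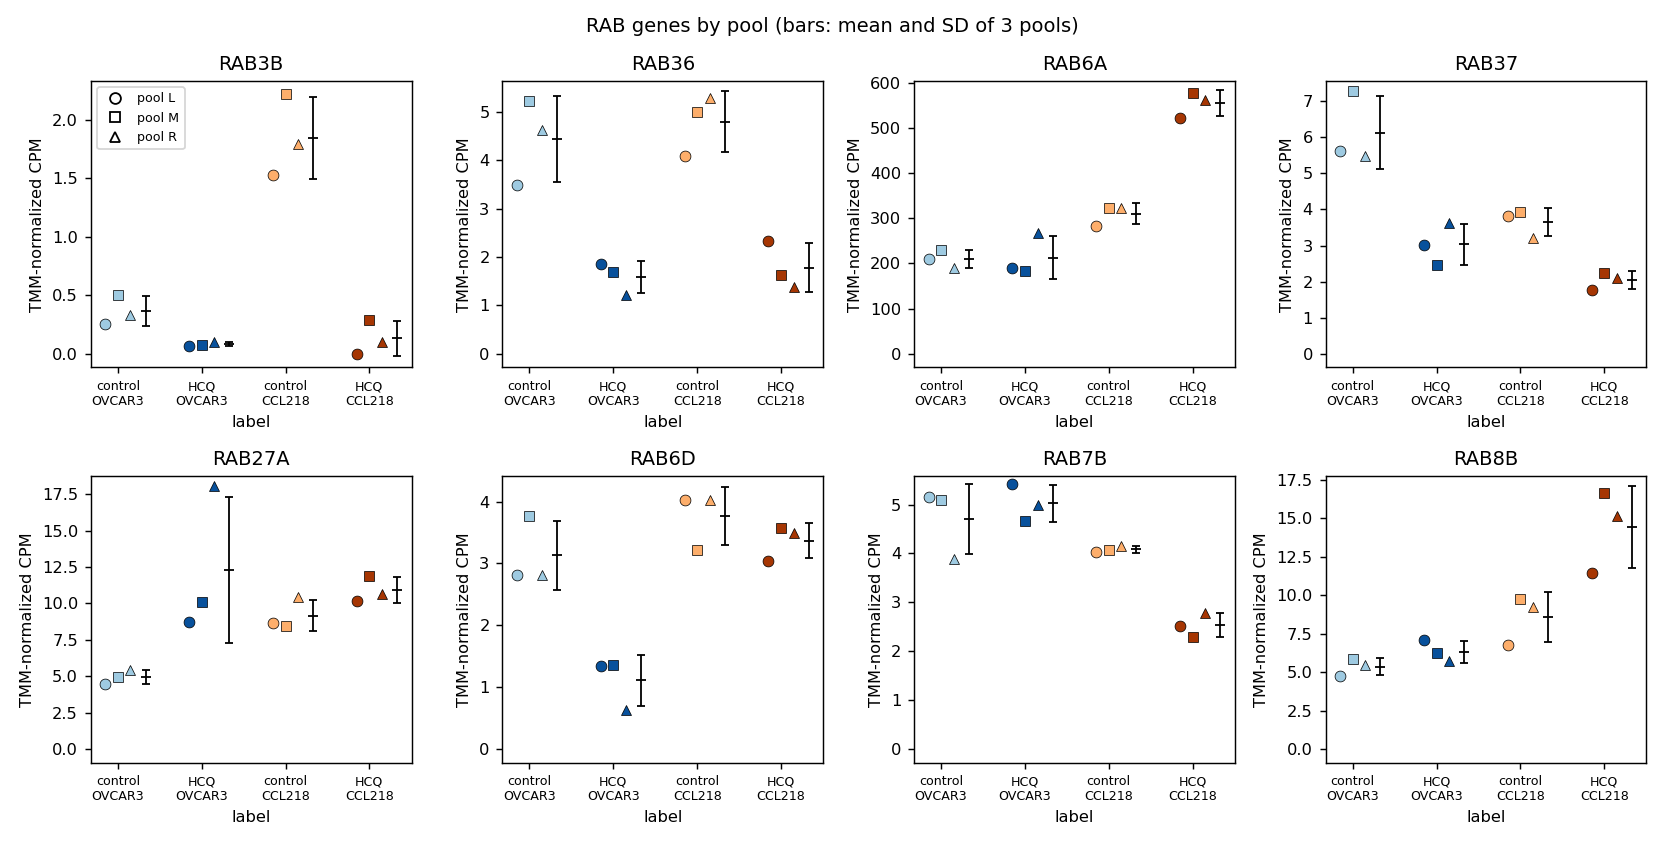
TMM-normalized CPM of 8 RAB genes in each pool (circle L, square M, triangle R) with the mean and SD of 3 pools beside them. RAB3B and RAB36 are lower in HCQ-evolved pools under both labels, and RAB6A is higher in HCQ-evolved CCL218 (554 ± 28.6 CPM) than in its controls (309.5 ± 23.3 CPM).

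RAB36, a Golgi RAB that binds RILP family effectors (chromosome 22, 23145366 to 23165663, on the plus strand), had lower levels in HCQ-evolved pools under both labels. Control CCL218 pools were at 4.08, 5.004 and 5.29 CPM and HCQ-evolved pools at 2.34, 1.62 and 1.37 CPM. The groups did not overlap, and RAB36 fell by 1.44 on the log2 scale (SE 0.25, adjusted p = 0.0216, edgeR). Under the OVCAR3 label, control pools were at 3.48, 5.21 and 4.62 CPM and HCQ-evolved pools at 1.85, 1.70 and 1.22 CPM, also without overlap. There the log2 fold change was -1.47 (SE 0.29, adjusted p = 0.0517), just short of the threshold, and it passed in 5 of 9 other settings. The difference in change between labels was 0.047 (SE 0.37, adjusted p = 0.999).

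With single pools left out, RAB36 had log2 fold changes of -1.68 to -1.28 under CCL218 (adjusted p 0.00109 to 0.144) and did not pass without control M, control R, HCQ-evolved M or HCQ-evolved R. Under OVCAR3 the values were -1.63 to -1.32 (adjusted p 0.038 to 0.233), and RAB36 passed without HCQ-evolved R.

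RAB6A, which acts in transport within the Golgi and back to the endoplasmic reticulum (chromosome 11, 73675638 to 73761137, on the minus strand), rose in HCQ-evolved CCL218. Control pools were at 283, 322 and 324 CPM and HCQ-evolved pools at 522, 578 and 562 CPM, from 309.5 ± 23.3 to 554 ± 28.6 CPM or 1.79-fold. These groups did not overlap, with a log2 fold change of 0.84 (SE 0.12, adjusted p = 0.0107). Leaving out single pools gave 0.77 to 0.88 with adjusted p of 0.000271 to 0.0967, not passing without control R or any one HCQ-evolved pool.

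Under the OVCAR3 label, control pools of RAB6A were at 209, 229 and 189.6 CPM and HCQ-evolved pools at 189, 182 and 267 CPM. The groups overlapped, since HCQ-evolved R was the highest pool and L and M were the lowest. The log2 fold change was 0.043 (SE 0.21, adjusted p = 0.947) and -0.17 without HCQ-evolved R. The change under CCL218 exceeded that under OVCAR3 by 0.82 (SE 0.23, adjusted p = 0.155), and by 1.02 (adjusted p = 0.0174) without HCQ-evolved R of OVCAR3. Between control groups RAB6A differed by 0.57 (SE 0.16, adjusted p = 0.153), higher under CCL218.

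RAB6C and RAB6D (chromosome 2, 131360492 to 131364168, on the minus strand) are close copies of RAB6A, and reads could be split between them in the authors' counting, so the levels of both are uncertain. RAB6D took 0.987 to 1.4% of the summed counts of RAB6A, RAB6C and RAB6D in control CCL218 and 0.577 to 0.617% in HCQ-evolved CCL218, while under OVCAR3 it took 1.32 to 1.61% and 0.237 to 0.733%. RAB6D was at 2.81, 3.77 and 2.81 CPM in control and 1.34, 1.35 and 0.636 CPM in HCQ-evolved OVCAR3, with a log2 fold change of -1.48 (SE 0.35, adjusted p = 0.0868). Under CCL218 the groups overlapped, at 4.03, 3.22 and 4.03 against 3.04, 3.57 and 3.49 CPM. RAB6C, with a log2 fold change of 0.53 (SE 0.22, adjusted p = 0.193) under CCL218, was below the filter under OVCAR3. Its CCL218 pools were at 0.786, 0.740 and 0.7255 CPM in control and 1.09, 1.04 and 1.14 CPM in HCQ-evolved. RAB6C passed the filter only through the HCQ-evolved pools and so could be called higher but not lower.

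Other members of the regulated secretion group did not pass the test. RAB37, found on secretory granules (chromosome 17, 74670578 to 74747335, on the plus strand), was at 5.62, 7.29 and 5.48 CPM in control and 3.004, 2.47 and 3.62 CPM in HCQ-evolved OVCAR3, and at 3.81, 3.92 and 3.20 against 1.76, 2.24 and 2.11 CPM under CCL218. HCQ-evolved pools lay below control pools under both labels. The log2 fold changes were -0.99 (SE 0.26, adjusted p = 0.104) and -0.84 (SE 0.20, adjusted p = 0.0503), and with the block for position the second passed (adjusted p = 0.0441). It also passed without HCQ-evolved R under OVCAR3 (-1.15, adjusted p = 0.0424) and without control L under CCL218 (-0.81, adjusted p = 0.0161).

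RAB27A, which docks secretory lysosomes and multivesicular bodies at the plasma membrane (chromosome 15, 55202966 to 55319113, on the minus strand), was at 4.43, 4.96 and 5.40 CPM in control and 8.70, 10.1 and 18.1 CPM in HCQ-evolved OVCAR3. These did not overlap, and HCQ-evolved R was well above L and M. The log2 fold change was 1.34 (SE 0.32, adjusted p = 0.0869). With no filter on low counts it passed, and without HCQ-evolved R it was 0.93 and passed (adjusted p = 0.0462). Under CCL218, where control pools were at 8.65, 8.42 and 10.4 CPM, HCQ-evolved pools were at 10.2, 11.9 and 10.7 CPM with a log2 fold change of 0.25 (SE 0.15, adjusted p = 0.333). The difference between labels was -1.06 (SE 0.35, adjusted p = 0.256). RAB27B, its paralog in secretory granules, was at 9.15, 19.7 and 12.7 against 14.6, 16.4 and 27.5 CPM under OVCAR3 and 7.96, 22 and 16.9 against 19.9, 23.3 and 24.1 CPM under CCL218, with overlapping pools.

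RAB3A was at 9.87, 6.22 and 5.51 CPM in control and 9.13, 7.64 and 8.38 CPM in HCQ-evolved pools labelled OVCAR3, and at 11.4, 5.98 and 7.62 against 8.70, 8.78 and 7.86 CPM under the CCL218 label. RAB3D was at 97.02, 96.5 and 79.3 CPM in control and 66.9, 68.7 and 115 CPM in HCQ-evolved pools labelled OVCAR3, and at 68.96, 68.8 and 60 against 70.3, 76.3 and 70.6 CPM under the CCL218 label. Neither passed, with log2 fold changes (OVCAR3 first and CCL218 next, here and below where a pair is given) of 0.24 and 0.017 for RAB3A, the vesicle RAB of neurotransmitter release, and -0.097 and 0.13 for RAB3D, a RAB of zymogen and other secretory granules. RAB26 was at 39.7, 22.5 and 31.5 CPM in control and 25.2, 28.7 and 13.4 CPM in HCQ-evolved pools labelled OVCAR3, and at 46.3, 20.6 and 21.7 against 19.4, 18.7 and 14.3 CPM under the CCL218 label. RAB26, which links secretory vesicles to autophagy, had log2 fold changes of -0.46 and -0.76 (adjusted p = 0.532 and 0.203), and its control L pool under CCL218 was well above the others. HCQ-evolved pools of RAB26 lay just below and those of RAB3D just above their controls under CCL218. RAB3C held at most 8 counts, 4, 0 and 4 in control and 0, 0 and 0 in HCQ-evolved OVCAR3 and 8, 2 and 2 against 4, 2 and 0 under CCL218.

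Of the early endosome RABs, 0 of 7 tested passed under either label (edgeR, and 0 at an unadjusted p under 0.05), with medians of -0.031 and 0.12. The shares of all genes that passed were 1.86 and 6.46% under OVCAR3 and CCL218, and 16.2 and 25.2% at the unadjusted p. RAB5A was at 51.2, 47.1 and 39.7 CPM in control and 41.9, 40.8 and 48.6 CPM in HCQ-evolved pools labelled OVCAR3, and at 50.6, 43.1 and 44.5 against 47.3, 52.6 and 50.1 CPM under the CCL218 label. RAB5B was at 132, 155 and 99.8 CPM in control and 110.3, 98.5 and 164 CPM in HCQ-evolved pools labelled OVCAR3, and at 136, 143 and 126 against 139.9, 162 and 154 CPM under the CCL218 label. RAB5C was at 108, 142 and 148 CPM in control and 156, 143 and 145 CPM in HCQ-evolved pools labelled OVCAR3, and at 124, 147 and 152 against 165, 151 and 157 CPM under the CCL218 label. The RAB5 proteins drive fusion of early endosomes, and their pools overlapped under both labels, with log2 fold changes from -0.031 for RAB5B under OVCAR3 and -0.053 for RAB5A to 0.17 for RAB5C. RAB21, which traffics integrins, lay higher in all HCQ-evolved pools under both labels (log2 fold changes 0.32 and 0.26, adjusted p = 0.403 and 0.268). Of the other 3 tested, RAB4A, which recycles cargo from early endosomes, had log2 fold changes of -0.30 and -0.056, RAB17, an epithelial RAB, of -0.25 and -0.33, and RAB22A of 0.064 and 0.011. Only RAB4A had pools apart, lower in HCQ-evolved OVCAR3, and RAB22A lay nearest to 0.

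The late endosome and lysosome RABs, the organelles in which HCQ accumulates, included no gene that passed (edgeR, 0 of 6 under OVCAR3 and 0 of 7 under CCL218, with 0 and 1 at an unadjusted p under 0.05). Over all genes these shares were 1.86 and 6.46%, and 16.2 and 25.2% at the unadjusted p. RAB7A was at 450.5, 401 and 326 CPM in control and 345, 321 and 408 CPM in HCQ-evolved pools labelled OVCAR3, and at 517, 368 and 366 against 375, 374 and 401 CPM under the CCL218 label. The pools overlapped, and the log2 fold changes were -0.11 (SE 0.20, adjusted p = 0.828) and -0.13 (SE 0.17, adjusted p = 0.657). RAB9A was at 12.7, 12.9 and 19.4 CPM in control and 16.6, 19.3 and 10.8 CPM in HCQ-evolved pools labelled OVCAR3, and at 13.5, 8.79 and 12.04 against 14.98, 15.4 and 11.8 CPM under the CCL218 label. RAB9A, which returns mannose 6-phosphate receptors from late endosomes to the Golgi, had log2 fold changes of 0.064 and 0.29.

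RAB7B, which acts between late endosomes and the trans-Golgi network (chromosome 1, 205976740 to 206003461, on the minus strand), was the member of that group at an unadjusted p under 0.05. Control CCL218 pools were at 4.03, 4.07 and 4.16 CPM and HCQ-evolved pools at 2.52, 2.30 and 2.79 CPM, without overlap. The log2 fold change was -0.69 (SE 0.17, adjusted p = 0.0616), against 0.11 (SE 0.22, adjusted p = 0.851) under OVCAR3, where pools overlapped. Without control L of CCL218 it was -0.70 and passed (adjusted p = 0.0174). The difference between labels was -0.78 (SE 0.24, adjusted p = 0.224). The log2 fold changes of RAB20, found on phagosomes and endosomes, were 0.35 and 0.24, those of RAB24, linked to autophagy, -0.21 and -0.27, and those of RAB29, which recruits LRRK2, 0.081 and 0.059. Pools of these 3 genes overlapped under both labels, and 44.8% of the RAB24 exon bases are shared with MXD3.

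The recycling and polarized delivery group had 11 tested genes, of which 0 passed under either label (edgeR, 1 and 3 at an unadjusted p under 0.05). Among all genes, 1.86 and 6.46% passed under OVCAR3 and CCL218, and 16.2 and 25.2% were at that unadjusted p. RAB8B, which delivers cargo to the plasma membrane and cilium (chromosome 15, 63189560 to 63267776, on the plus strand), was at 6.73, 9.77 and 9.22 CPM in control and 11.4, 16.7 and 15.2 CPM in HCQ-evolved CCL218. These did not overlap, and the log2 fold change was 0.75 (SE 0.21, adjusted p = 0.0807), with an adjusted p of 0.0137 with the block for position and 0.0218 without control L. Under OVCAR3 it was 0.26 (SE 0.21, adjusted p = 0.605). RAB14, which acts between the Golgi and endosomes, was at 60.4, 98.8 and 105 against 125, 141 and 128 CPM under OVCAR3 and 65.3, 104 and 116 against 139.5, 140.5 and 132 CPM under CCL218. HCQ-evolved pools lay above controls under both labels, control L was the lowest control pool under both, and neither log2 fold change passed (0.59 and 0.53, adjusted p = 0.291 and 0.175). Without control L they were 0.36 (adjusted p = 0.484) and 0.31 (adjusted p = 0.0274), so RAB14 passed under CCL218 with a smaller change.

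RAB11A was at 514, 432 and 526 CPM in control and 531, 557 and 462 CPM in HCQ-evolved pools labelled OVCAR3, and at 356, 314 and 336 against 373, 382 and 359.9 CPM under the CCL218 label. RAB11B was at 164, 95.1 and 129 CPM in control and 142, 156 and 90.9 CPM in HCQ-evolved pools labelled OVCAR3, and at 144, 85.9 and 93.1 against 119, 99.97 and 95.9 CPM under the CCL218 label. RAB25 was at 229.9, 140.4 and 196 CPM in control and 195, 214 and 127 CPM in HCQ-evolved pools labelled OVCAR3, and at 161, 95.3 and 107 against 135, 124 and 113 CPM under the CCL218 label. RAB11A pools did not overlap under CCL218, where HCQ-evolved pools were higher, and the others overlapped. These proteins run the recycling endosome, and none passed, with log2 fold changes of -0.061 to 0.093 under OVCAR3 for RAB25 and RAB11A and -0.043 to 0.15 under CCL218 for RAB11B and RAB11A. Between control groups RAB11A was lower under CCL218 in all pools, with a log2 difference of -0.54 (SE 0.16, adjusted p = 0.205). In the rest of the group, RAB8A, which acts in ciliary and apical delivery, had log2 fold changes of -0.28 and -0.37, RAB10, which moves GLUT4 vesicles, of 0.16 and 0.22, and RAB13, a tight junction RAB, of -0.56 and -0.37. RAB12, RAB15 and RAB35 had 0.32 and -0.19, -0.17 and -0.35, and -0.077 and -0.22. Under CCL218 HCQ-evolved pools were apart for RAB10 (higher) and for RAB8A and RAB15 (lower), and under OVCAR3 all of these overlapped.

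Of 13 endoplasmic reticulum and Golgi RABs tested under CCL218, 1 rose (RAB6A) and 1 fell (RAB36), where 3.82 and 2.64% of all genes did. At an unadjusted p under 0.05 there were 6, where 25.2% of all genes were. They included RAB6C, which could be called higher but not lower. Of 12 tested under OVCAR3 0 passed (edgeR, 0.647 and 1.21% of all genes), and 3 were at an unadjusted p under 0.05, against 16.2% of all genes. RAB1B was at 533, 465 and 487 CPM in control and 526, 515 and 495 CPM in HCQ-evolved pools labelled OVCAR3, and at 436, 368 and 391 against 340.0, 302 and 315 CPM under the CCL218 label. Under CCL218 the HCQ-evolved pools of RAB1B lay below controls, with a log2 fold change of -0.32 (SE 0.12, adjusted p = 0.16), against 0.068 (SE 0.16, adjusted p = 0.88) under OVCAR3. RAB19, a little studied Golgi RAB, lay lower in all HCQ-evolved pools under both labels, with log2 fold changes of -0.55 (SE 0.23, adjusted p = 0.291) and -0.64 (SE 0.18, adjusted p = 0.0853), the second passing without control L (-0.60, adjusted p = 0.0398). RAB1A, the paralog of RAB1B, had log2 fold changes of 0.17 and 0.16, RAB2A, a RAB of the early secretory pathway, of 0.20 and -0.012, and its paralog RAB2B of -0.22 and 0.051. RAB18, which acts at lipid droplets and the endoplasmic reticulum, had 0.14 and 0.18, RAB30 -0.69 and 0.11 and RAB33B, which binds the autophagy protein ATG16L1, 0.23 and 0.53. None passed, and HCQ-evolved pools were apart for RAB2A (higher), RAB2B and RAB30 (both lower) under OVCAR3 and for RAB18 and RAB33B (both higher) under CCL218.

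Of the ciliary, ubiquitin ligase and less studied RABs, 0 of 4 tested passed under either label (edgeR, 1 and 0 at an unadjusted p under 0.05). Over all genes, 1.86 and 6.46% passed under OVCAR3 and CCL218, and 16.2 and 25.2% were at that unadjusted p. RAB28, which acts in photoreceptor cilia, was at 5.85, 7.47 and 10.4 CPM in control and 12.2, 16.3 and 11.9 CPM in HCQ-evolved OVCAR3, and at 5.70, 10.3 and 10.7 against 11.5, 12.4 and 10.7 CPM under CCL218, above controls under both labels, though only narrowly under CCL218. Its log2 fold changes were 0.78 (SE 0.27, adjusted p = 0.213) and 0.37 (SE 0.24, adjusted p = 0.369). RAB40C was at 75.3, 60.2 and 60.95 CPM in control and 70.5, 71.1 and 59.7 CPM in HCQ-evolved pools labelled OVCAR3, and at 73.01, 51.9 and 54.03 against 71.9, 63.5 and 61.2 CPM under the CCL218 label. Those of RAB40C overlapped, with log2 fold changes of 0.054 and 0.13. RAB23, which restrains Hedgehog signalling, had 0.56 and 0.35 and RAB40B -0.13 and 0.28, with overlapping pools, and 57.8% of the RAB23 exon bases lie opposite BAG2.

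RAB42 (chromosome 1, 28592200 to 28595449, on the plus strand) was below the filter and was named after its values were seen. Control OVCAR3 pools held 4, 0 and 6 counts and HCQ-evolved pools 46, 34 and 46, without overlap, 0.0714 ± 0.0619 against 0.743 ± 0.0773 CPM. In a fit without the filter, which called 2.56% of 21434 genes under OVCAR3, the log2 fold change was 3.29 (SE 0.69, adjusted p = 0.0153, edgeR). Under CCL218 the order was the opposite, with 16, 14 and 24 counts in control and 12, 8 and 4 in HCQ-evolved pools (-1.38, SE 0.60, adjusted p = 0.237, without the filter).

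RAB32, which serves lysosome-related organelles (chromosome 6, 146543833 to 146554953, on the plus strand), held 8, 12 and 30 counts in control and 101, 70 and 48 in HCQ-evolved OVCAR3, again without overlap. Its log2 fold change without the filter was 1.80 (SE 0.49, adjusted p = 0.0667). Under CCL218 control pools held 28, 76 and 44 and HCQ-evolved pools 74, 68 and 56 counts, with a log2 fold change of 0.16 (SE 0.37, adjusted p = 0.811). RAB40A held 2, 10 and 0 counts in control CCL218 and 0 in all 3 HCQ-evolved pools, and 12, 12 and 10 against 15, 6 and 21 under OVCAR3. The remaining untested members above the floor in every pool, RAB31 and RAB41, overlapped between groups once scaled to depth, as did RAB6B, RAB9B, RAB33A and RAB34, which held at most 14 counts in any pool. Of the RAB41 exon bases, 49.3% lie opposite PDZD11, so its counts are uncertain.

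**Figure D4:**
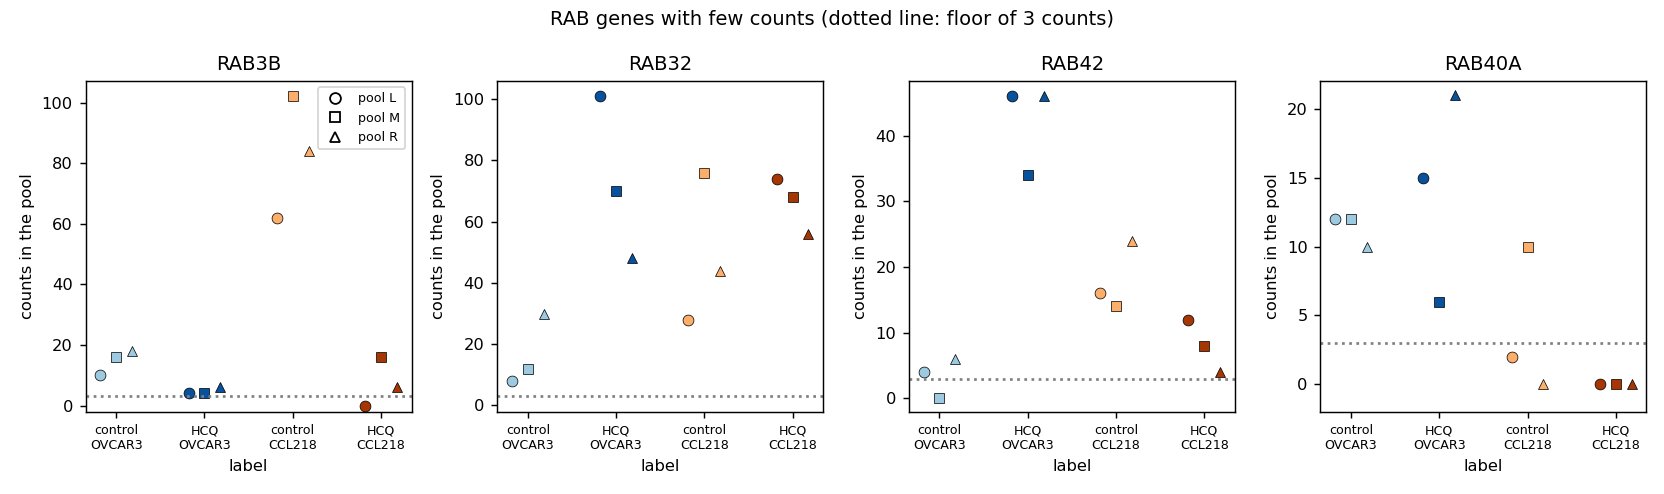
Counts of 4 RAB genes with few reads in each pool (circle L, square M, triangle R), with the floor of 3 counts as a dotted line. RAB42 holds 34 to 46 counts in HCQ-evolved OVCAR3 against 0 to 6 in its controls, and RAB3B holds 0 to 16 in HCQ-evolved CCL218 against 62 to 102.

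Changes under the labels were compared over the 46 RAB genes tested under both, whose groups share no library. The labels did share passage numbers. Deviations of their control pools also correlated by position (0.887, 0.865 and 0.284 at L, M and R). What part this played in the values below was not tested. The log2 fold changes had a Pearson's r of 0.659 and a Spearman's rho of 0.683 across genes, and the sign was shared by 34 of 46 (73.9%). Over all 11944 genes tested under both, r was 0.563, rho 0.609 and the shared share 73.1%. HCQ-evolved pools lay above controls under both labels for 3 RAB genes (RAB14, RAB21 and RAB28) and below for 3 (RAB19, RAB36 and RAB37), 6.52% each, against 7.05 and 6.37% of all genes. In the fit of all 12 libraries, the change differed between labels for 0 of 49 RAB genes at an adjusted p under 0.05 (edgeR), against 0.872% of 12613 genes. At an unadjusted p under 0.05 there were 5 (RAB6A, RAB6D, RAB7B, RAB27A and RAB32), where 9.11% of all genes did so. DESeq2's Wald test called RAB6A, RAB6D and RAB7B (3.67% of all genes), and limma voom 0 (0.904%).

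**Figure D5:**
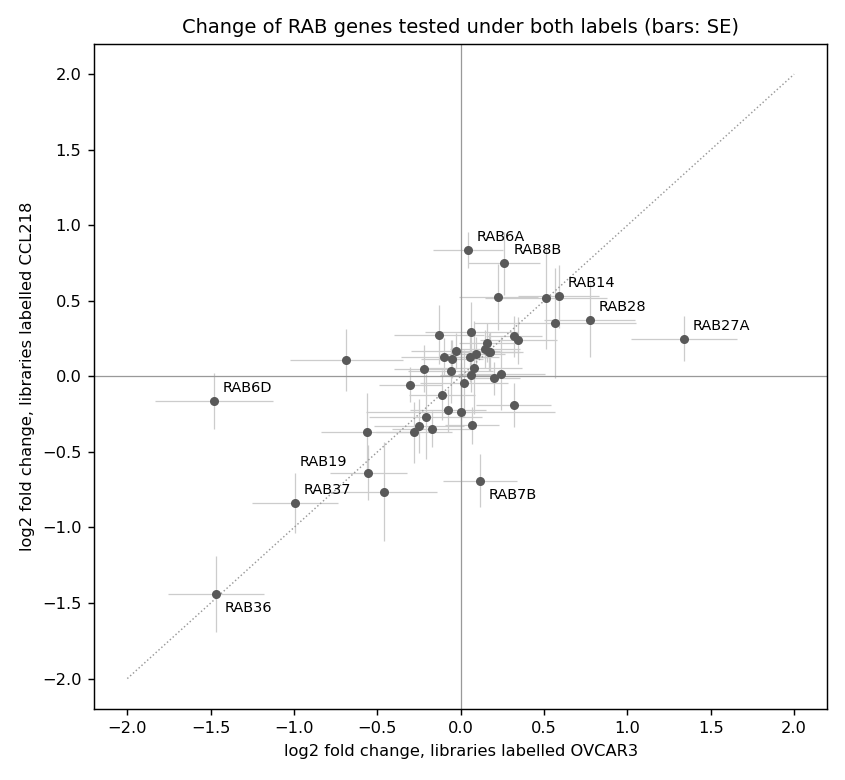
log2 fold change of each of 46 RAB genes under the OVCAR3 label (x axis) and the CCL218 label (y axis), with standard errors as bars and equality as a dotted line. RAB36 lies near the line with values of -1.47 and -1.44, while RAB6A and RAB27A lie off it.

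Between control groups, the 5 RAB genes higher under CCL218 with the block were RAB3B, RAB6A, RAB8B, RAB27A and RAB43, and the 10 lower included RAB11A, RAB25 and RAB37. Most exon bases of RAB43 (79.3%) are shared with ISY1-RAB43, so its counts are uncertain, and its log2 fold changes were -0.00019 and -0.23. Without the block, 9 of 47 were at an unadjusted p under 0.05, against 12.3% of all genes. Both counts include RAB3B, which entered these fits only through CCL218 pools and so could be called higher but not lower.

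Of 137 genes that regulate or bind RAB proteins, listed in 6 groups, 122 were tested under each label. Under OVCAR3, 0 passed by edgeR, against 1.86% of all genes, and the median log2 fold change was 0.15. At an unadjusted p under 0.05 there were 16 (13.1%, against 16.2% of all genes), and DESeq2's Wald test called 7 (5.74%, against 9.06%) and limma voom 0 (against 2.12%). Under CCL218, 4 passed, 2 higher and 2 lower (3.28%, against 6.46% of all genes). There were 22 at an unadjusted p under 0.05 (18.0%, against 25.2%), 16 by DESeq2 (13.1%, against 17.7%), 4 by limma voom (3.28%, against 6.85%) and 19 with the block (15.6%, against 14.2%). These shares were near or below the background. The median there was 0.14. Of 37 exchange factors tested, MON1A, a subunit of the complex that activates RAB7, fell. It was at 10.5, 8.03 and 9.24 CPM in control and 5.95, 5.48 and 5.75 CPM in HCQ-evolved CCL218, and its log2 fold change was -0.69 (SE 0.16, adjusted p = 0.0456). Of 36 GTPase-activating proteins tested, TBC1D22A rose and TBC1D30, which acts on RAB8A, fell.

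TBC1D22A was at 40.1, 46.8 and 49.5 CPM in control and 76.1, 79 and 69.9 CPM in HCQ-evolved CCL218, with a log2 fold change of 0.72 (SE 0.13, adjusted p = 0.0238). TBC1D30 was at 47.6, 43.2 and 38.9 against 25.9, 27.1 and 30.1 CPM, with a log2 fold change of -0.65 (SE 0.14, adjusted p = 0.0374). In both cases the groups did not overlap. Under OVCAR3 the log2 fold changes were 0.56 (SE 0.21, adjusted p = 0.225) for TBC1D22A, -0.68 (SE 0.18, adjusted p = 0.101) for TBC1D30 and -0.63 (SE 0.21, adjusted p = 0.193) for MON1A, and these did not pass.

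Of 19 early and recycling endosome effectors tested, OPTN, an autophagy receptor that binds RAB8, rose from 44.5, 51.3 and 49.3 to 68.6, 75.9 and 70.3 CPM under CCL218, with a log2 fold change of 0.56 (SE 0.12, adjusted p = 0.0379). Its change under OVCAR3 was 0.27 (SE 0.17, adjusted p = 0.473). None of 9 tested effectors of RAB3 and RAB27 in secretion, of 14 of late endosomes and the Golgi, or of 7 genes of prenylation, escort and membrane extraction passed under either label (edgeR). At an unadjusted p under 0.05 these had 4 and 3, 0 and 1, and 0 and 0 genes under OVCAR3 and CCL218, where 16.2 and 25.2% of all genes did. DESeq2 called 2 and 3 of the RAB3 and RAB27 effectors and 0 of the other 2 lists, against 9.06 and 17.7% of all genes, and limma voom 0 of all 3.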

How the data were processed

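For each of 12 libraries the authors deposited gene counts, from reads aligned to hg38 with STAR, cleared of duplicates with RmDup and assigned with featureCounts (versions, strand setting and multimapping rule not given in the sources used here). Members, lists and the naming rule were chosen with earlier results of these data known. The rule named genes that passed, the main secretion, endosome and recycling members and the most abundant gene of each role. Each label was fitted alone over all genes reaching 1 CPM in 3 or more libraries (edgeR 4.0.16, R 4.3.3, quasi-likelihood F test, TMM, robust), with p adjusted over all genes (Benjamini-Hochberg, threshold 0.05). A difference of changes was the interaction in a fit of all libraries. Alternatives were DESeq2 1.42.0, limma 3.58.1 voom, other filters and scalings, a block for plate position, a length and GC offset and leaving out each pool. TPM used GENCODE 44 lengths, and promoters came from RefSeq. The deviations of pools from group means correlated at positions L, M and R by 0.578, 0.31 and 0.241 between the CCL218 groups and by 0.887, 0.865 and 0.284 between the control groups, so positions paired these, but not under OVCAR3 (0.452, -0.726 and -0.528).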

Additional observations from a re-analysis of the deposited data

How the results depend on the processing

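With 3 pools a group, counts of RAB genes passing the test moved with the setting, and the cause was not tested. For OVCAR3, where 0 were higher and 0 lower, the higher and lower counts were 1 and 3 by DESeq2, 2 and 1 with no filter, 1 and 1 at 0.5 CPM, 1 and 2 with a length and GC offset, 2 and 3 with all libraries in one fit, and 0 to 1 and 0 to 3 without single pools. In the same order, 9.06, 2.56, 2.27, 8.51 and 9.24% of all genes passed in either direction, and 0.0250 to 4.60% without single pools. The gene called higher at 0.5 CPM was RAB42, which reached that level only in HCQ-evolved pools. It could therefore be called higher but not lower there. For CCL218, where 1 was higher and 2 lower, they were 2 and 6 by DESeq2, 2 and 6 with the offset, 2 and 5 with the block and the offset, 0 to 4 and 0 to 6 without single pools. The replicate block alone gave 2 higher, and one fit of all libraries 4 lower. Of all genes, 17.7% passed by DESeq2, 19.1% with the offset, 17.4% with the block and the offset, 14.2% with the block, 5.19% in one fit and 0.841 to 25.2% without single pools. For the difference between labels (0), 3 differed by DESeq2, and 1 each with no filter, at 0.5 CPM and with the offset, and 0 to 1 without single pools, where 3.67, 0.527, 0.784 and 3.34% of all genes did in the settings with all pools. That gene was RAB42 with no filter and at 0.5 CPM, and RAB6A with the offset. At 0.5 CPM RAB42 entered this fit through its HCQ-evolved OVCAR3 pools, where it was highest. The filter therefore favoured the direction of that call. For control CCL218 against control OVCAR3 (1 higher, 0 lower) the counts were 3 and 2 by DESeq2, 5 and 10 with the replicate block, 7 and 6 with the block and the offset, 0 and 1 in one fit, 2 higher with the offset, and 0 to 1 higher and 0 lower without single pools. Of all genes, 5.96% passed by DESeq2, 36.0% with the block, 32.5% with the block and the offset, 3.42% in one fit and 4.18% with the offset, and 0.205 to 3.86% without single pools. The higher genes included RAB3B, which the filter of 1 CPM admitted only through its CCL218 pools. The median log2 fold change of RAB genes in OVCAR3 (0.049) was 0.094 with no filter, -0.031 with the offset, -0.040 with the block and the offset, and -0.0030 to 0.086 without single pools. That in CCL218 (0.059) was 0.12 by limma voom, 0.12 with the replicate block, 0.017 with the offset, and 0.025 to 0.104 without single pools. RAB6A in OVCAR3 turned to -0.085 with the offset, -0.098 with the block and the offset, and -0.17 to 0.15 without single pools. The difference of RAB36 between labels turned to -0.087, -0.094 and -0.20 to 0.21 under the same settings. Under OVCAR3, plate positions did not pair the pools, and the block called 0 RAB genes and 0.664% of all genes. RAB36 and RAB6A in CCL218 kept their direction in every setting and passed in 9 of 9 settings other than leaving out a pool. These settings refit the same pools. RAB3B in CCL218 did the same, but its direction was open only with no filter. In the other settings it entered only through its control pools and could be called lower but not higher. RAB3B in CCL218 could not be fitted in 3 of the 6 cases with a pool left out, because it fell below the filter.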
